A study of Mus musculus with 20 samples.

Results

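The 32 genes described here are listed cell cycle genes, taken by symbol from tables of 24972 symbols each for mouse liver and for the RAW264.7 line, mouse cells that resemble macrophages. They cover replication licensing and the replication fork (10 genes), deoxynucleotide supply (3), the cyclins, kinases and E2F factor of the G1/S transition (5), the cyclins and kinase of G2/M (4), mitotic kinases and checkpoint genes (6), proliferation markers (2) and inhibitors of cyclin-dependent kinases (2). All 32 were found in both tables. The series compared total liver from mice fed a control or an alcohol diet for 6 weeks, and RAW264.7 cells given BSA, a serum protein used as the control treatment, or a complex of [O] HMGB1 and IL1β for 6 hours. HMGB1 is a nuclear protein that acts as an alarmin outside the cell, and IL1β is an inflammatory cytokine. The liver libraries used for comparison were WT mice on control diet (n = 4) and WT mice on alcohol diet (n = 4), all labelled male. The RAW264.7 libraries were BSA (n = 3) and complex (n = 3), labelled WT, without any single-component treatment. The sources used here do not give strain, age or doses. A further 6 liver libraries, labelled RageΔMye on the same diets, entered only a joint fit. Nothing in the labels says that replicates were separate animals or cultures, so p-values measure the spread between these samples, which may be technical.

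Cells that divide switch on these genes in waves. In G1, D-type cyclins with CDK4 or CDK6 and then cyclin E with CDK2 inactivate the RB family, which frees E2F factors to activate genes of DNA synthesis, while CDC6, CDT1 and the MCM helicase license replication origins and geminin prevents licensing from recurring. Cyclin A, cyclin B with CDK1 and the Aurora and Polo kinases then carry the cell through G2 and mitosis, and the inhibitors p21 and p27 restrain the kinases. Adult hepatocytes are mostly quiescent and re-enter the cycle after injury or loss of tissue, whereas RAW264.7 is a continuously growing line.

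Most of the 32 genes stood higher in RAW264.7 cells than in liver, although the tables were made separately and no difference between them was tested. In WT liver on control diet, 16 of the 32 genes had a mean under 1 TPM (a level scaled for transcript length and for the total of the library), and the median of the 32 means was 0.96 TPM. In RAW264.7 cells given BSA, 31 of 32 had a mean above that level and the median was 22.9 TPM. Mki67, the proliferation antigen Ki-67, stood at 0.231 ± 0.0144 TPM (SD, n = 4) in control liver and at 52.9 ± 4.12 TPM (SD, n = 3) in RAW264.7 cells with BSA. Top2a, the DNA topoisomerase of S phase and mitosis, stood at 0.314 ± 0.0357 and 22.2 ± 0.927 TPM in the same groups. Pcna, the sliding clamp of the replication fork, differed less, at 16.7 ± 2.5 and 47.8 ± 10.6 TPM. In bulk samples, fewer cells of a type and less RNA per cell cannot be told apart. The liver and RAW264.7 libraries also differed in the share of TPM in genes that overlap a gene on the opposite strand, given below. Its part in these levels was not tested.

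The tables give no read numbers, so depth is unknown, and the files show it only through listed zeros. WT liver libraries listed 15113 to 15599 genes above 0 and none of the 32 genes at 0. RAW264.7 libraries listed 8630 to 9231 genes above 0, with 1 to 2 of the 32 at 0 in each BSA library and 3 to 6 in each complex library. Genes with an exon overlapping an exon on the opposite strand took 15.4% to 18.3% of TPM in WT liver and 56.0% to 58.9% in RAW264.7 cells. The labelled materials carried their own markers. Summed over 11 hepatocyte markers, TPM was 147659 to 192930 in WT liver and 26.7 to 64.2 in RAW264.7 cells, where 9 of the 11 were at 0. Summed over 16 macrophage markers, TPM was 1553 to 2045 in RAW264.7 cells, where Fcgr1 alone of the list was at 0 in all 6 libraries. In WT liver the diets also differed in sex-linked transcripts. Xist was 0.00165 to 0.135 TPM on control diet and 17.8 to 27.3 TPM on alcohol, and 4 Y-linked genes summed to 11.3 to 16.6 and 0 to 0.0161 TPM. Sex and diet therefore cannot be told apart in any WT liver difference below, whatever the label.

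In WT liver, 4 of the 32 cell cycle genes passed the test between diets. Cdkn1a, which encodes the inhibitor p21, rose. Gmnn, which encodes the licensing inhibitor geminin, Cdk2, the kinase partner of cyclins E and A, and Aurka, the Aurora A kinase of the mitotic spindle, fell. The test was limma on log2(TPM + 1), run over the 9747 genes whose mean reached 1 TPM on either diet, with an adjusted p under 0.05 as the threshold. It could be run on 16 of the 32 genes, of which 1 rose and 3 fell. Over all genes tested, 31.2% passed, 13.3% higher and 17.9% lower, so a count of 4 in 16 was near the share of all genes. Of the 16, 12 reached 1 TPM on both diets, and of these 1 rose (8.33%) and 2 fell (16.7%). Of all genes that reached it on both diets, 12.1% rose and 16.5% fell. The other 4 of the 16, Mcm2, Ccne1, E2f1 and Aurka, reached it only on control diet, the group where they are higher, so that selection fixed their sign. An unadjusted p under 0.05 was found for 7 of the 16 genes and for 43% of all genes tested. The difference was below 0 for 10 of the 16 and for 54.9% of all genes, with medians of −0.18 and −0.05. Among the 12 genes that reached the level on both diets it was below 0 for 6, with a median of −0.04, beside 54.9% and −0.04 of all genes of that kind. The diet groups did not overlap for 5 of the 16 genes, beside 30.8% of all genes tested.

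**Figure D1:**
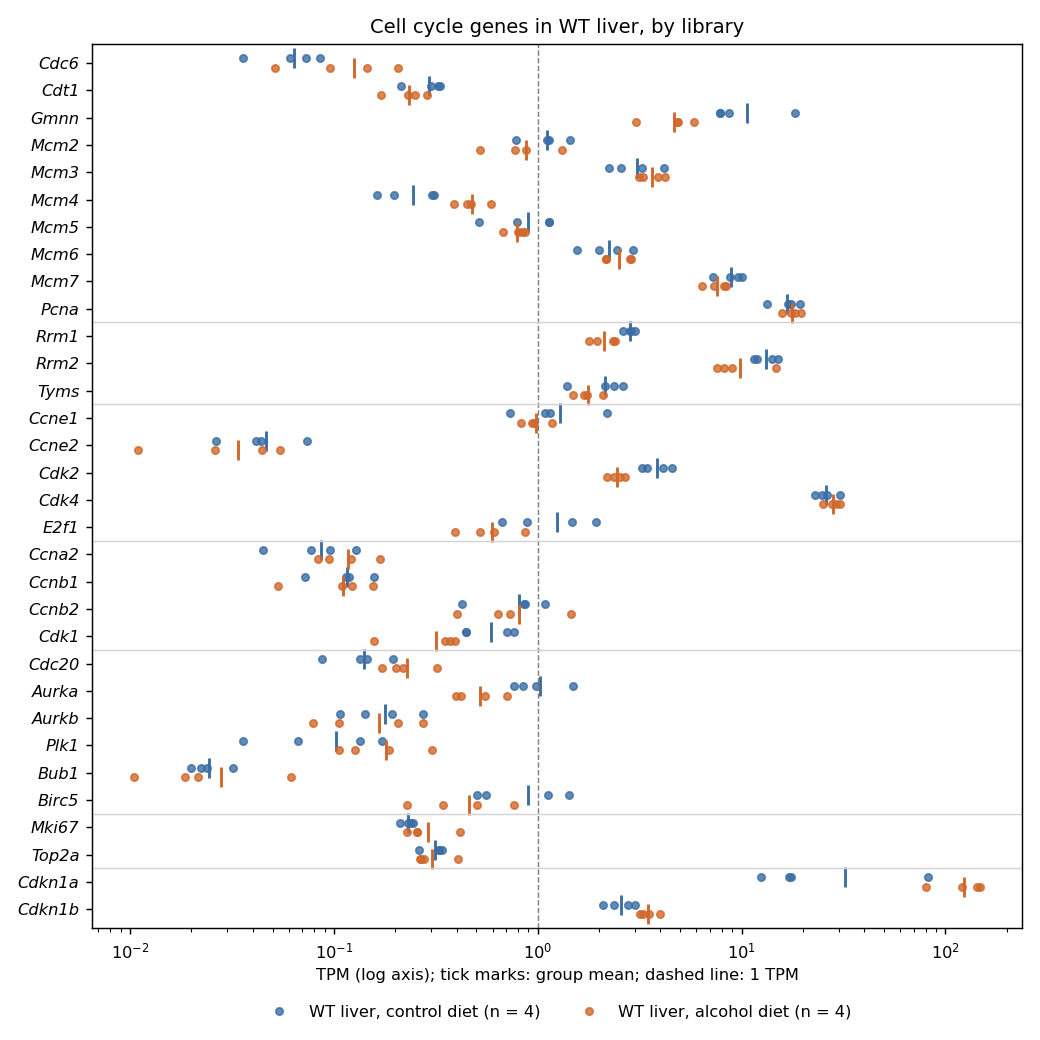
TPM of the 32 genes in the 8 WT liver libraries on a log axis, 1 point per library (control diet and alcohol diet, n = 4 each). A vertical tick marks each group mean, a dashed line 1 TPM, and grey lines part the roles in the cycle. The means of the G2/M, mitotic and proliferation marker genes lie left of the dashed line, apart from the control mean of Aurka at 1.02 TPM. Cdkn1a is the gene whose means lie farthest apart, 32.2 and 123 TPM.

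Cdkn1a lies on mm10 chromosome 17 at chr17:29090976-29100727, plus strand. Its level was 17.4, 12.5, 17.0 and 82.0 TPM in the 4 control livers and 148, 121, 143 and 80.6 TPM in the 4 alcohol livers. Control library 4 stood far above the other controls and just above alcohol library 4, so the groups overlapped by that pair. The means were 32.2 ± 33.3 and 123 ± 30.6 TPM (SD, n = 4 each), a log2 difference of 2.29 (SE 0.481, 95% interval 1.23 to 3.36, limma adjusted p = 0.00601). Without control library 4 the difference was 2.88. The gene is a target of the tumour suppressor p53, which binds paired copies of a short core. RefSeq (GRCm38.p6) places a transcript start of Cdkn1a in the window below, which is shown because it holds such a pair. The window, chr17:29090729-29091008 on the plus strand, runs from 250 bases before the start to 30 bases after it, and the capitals run from base −49 to −34 and hold ACATGT on both sides of 4 bases.
Cdkn1a: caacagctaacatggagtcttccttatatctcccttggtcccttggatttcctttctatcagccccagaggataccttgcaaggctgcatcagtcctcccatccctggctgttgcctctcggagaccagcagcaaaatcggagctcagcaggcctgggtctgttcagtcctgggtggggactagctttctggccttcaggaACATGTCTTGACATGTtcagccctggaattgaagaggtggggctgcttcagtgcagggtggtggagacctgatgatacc
That pair, searched after this window had been seen, occurred in 4 of 32851 RefSeq windows of the same length (0.0122%) on either strand. It was in 1 of the 29 windows found for the listed genes, which covered 27 of the 32. The other Cdkn1a window, chr17:29093519-29093798 on the plus strand, holds no such pair. Which of these starts the liver libraries used was not tested.

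Cdkn1b encodes p27, the other inhibitor in the list, and did not pass. Its values were 2.08, 2.36, 2.77 and 3.01 TPM on control diet and 3.53, 3.16, 3.99 and 3.28 TPM on alcohol. Each alcohol library was above each control library. The difference was 0.34 (95% interval 0.07 to 0.62, limma adjusted p = 0.0587), and it passed with quantile normalization, at 0.41 (adjusted p = 0.0225).

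Among the licensing and fork genes, 1 of the 6 tested fell and the other 5 did not pass. Gmnn (chr13:24751845-24761923, minus strand) was 8.68, 18.2, 7.82 and 7.87 TPM on control diet and 4.90, 4.84, 5.81 and 3.03 TPM on alcohol. All 4 alcohol libraries were below all 4 controls, and control library 2 stood well above the rest. The difference was −0.99 (SE 0.258, 95% interval −1.56 to −0.42, limma adjusted p = 0.0165), and −0.72 without control library 2. Geminin binds CDT1, the loader of the MCM helicase, and Cdt1 itself was 0.214 to 0.333 TPM on control diet and 0.17 to 0.286 TPM on alcohol, too low for the test.

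The helicase subunits did not pass the test or were too low for it. Mcm7 was 7.25, 8.79, 10 and 9.62 TPM on control diet and 7.36, 8.17, 8.34 and 6.42 TPM on alcohol, a difference of −0.21 (95% interval −0.50 to 0.09, limma adjusted p = 0.261). Mcm3 had a difference of 0.21 (95% interval −0.15 to 0.56), Mcm6 of 0.13 (−0.21 to 0.46) and Mcm2 of −0.18 (−0.51 to 0.14). The intervals bound any change in these 4 subunits on either side of 0 without showing that there was none. Mcm4, under 1 TPM throughout and so not tested, was 0.198, 0.162, 0.311 and 0.304 TPM on control diet and 0.589, 0.448, 0.390 and 0.469 TPM on alcohol, with no overlap. Mcm5 was 0.517 to 1.14 TPM on control diet and 0.678 to 0.865 TPM on alcohol, and Cdc6 stayed at or under 0.207 TPM in all 8 libraries. Pcna, the most abundant of the licensing and fork genes in liver, was 13.3, 19.3, 16.8 and 17.4 TPM on control diet and 17.5, 18.3, 15.7 and 19.5 TPM on alcohol. Its difference of 0.09 (95% interval −0.20 to 0.39, limma adjusted p = 0.627) was smaller than the spread of the control libraries.

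The 3 genes of deoxynucleotide supply all had lower means on alcohol and none passed the test. Ribonucleotide reductase makes deoxynucleotides from ribonucleotides, with the large subunit from Rrm1 and the S-phase small subunit from Rrm2. Rrm1 was 2.63, 2.85, 3.01 and 2.86 TPM on control diet and 1.96, 2.35, 1.78 and 2.39 TPM on alcohol, with no overlap and a difference of −0.30 (95% interval −0.55 to −0.06, limma adjusted p = 0.0605). Rrm2 was 14.1, 11.5, 11.9 and 15.1 TPM on control diet and 8.95, 7.61, 14.7 and 8.17 TPM on alcohol. Alcohol library 3 lay among the controls and the other 3 below them, with a difference of −0.42 (95% interval −0.84 to 0.00, adjusted p = 0.116) that became −0.61 and passed without that library (adjusted p = 0.0131). Tyms, the thymidylate synthase, differed by −0.17 (95% interval −0.49 to 0.15).

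Of the 5 G1/S genes, Cdk2 fell, Ccne2 could not be tested and 3 did not pass. Cdk2 (chr10:128697939-128705031, minus strand) was 3.23, 4.11, 4.58 and 3.42 TPM on control diet and 2.69, 2.19, 2.36 and 2.52 TPM on alcohol. The groups were separate, and the alcohol libraries lay within a narrow band. The difference was −0.48 (SE 0.124, 95% interval −0.76 to −0.21, limma adjusted p = 0.015). E2f1, the activating transcription factor, was 0.882, 1.48, 1.94 and 0.670 TPM on control diet and 0.392, 0.608, 0.863 and 0.520 TPM on alcohol, a difference of −0.46 (95% interval −0.86 to −0.07, adjusted p = 0.0697) that passed without control library 4 (−0.59, adjusted p = 0.02). Ccne1, cyclin E1, differed by −0.18 (95% interval −0.55 to 0.20) and Cdk4 by 0.11 (−0.15 to 0.37), with Cdk4 at 26.1 ± 3.12 and 28.1 ± 2.21 TPM.

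The Cdk2 promoter is shown because the gene fell and its window holds an E2F octamer and a CCAAT box, motifs of the E2F and NF-Y factors. It spans chr10:128705022-128705301 on the minus strand (RefSeq, GRCm38.p6), written 5′ to 3′, with TTTCCCGC on the opposite strand at −140 to −133 and CCAAT at −45 to −41 in capitals.
Cdk2: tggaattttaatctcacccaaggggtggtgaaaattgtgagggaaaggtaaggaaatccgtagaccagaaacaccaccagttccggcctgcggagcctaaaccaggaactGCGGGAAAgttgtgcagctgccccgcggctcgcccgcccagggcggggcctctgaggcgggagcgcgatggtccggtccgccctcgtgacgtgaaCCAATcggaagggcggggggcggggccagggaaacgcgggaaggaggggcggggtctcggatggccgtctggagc
Any of the E2F octamers TTTCCCGC, TTTCGCGC, TTTGCCGC and TTTGGCGC, on either strand, was in 7 of the 29 windows of listed genes (24.1%), namely those of Cdc6, Cdk1, Cdk2, Mcm3, Mcm5, Mcm6 and Mcm7, and in 2.12% of the 32851 windows. Of these 7 genes, Cdk2 was called in liver, Mcm3, Mcm6 and Mcm7 were not, and Cdc6, Cdk1 and Mcm5 were too low for the test. A match to these letters describes the window and not a bound site.

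The G2/M and mitotic genes were near the lower end of the table in liver, and only Aurka of these 10 reached the level for testing. Aurka (chr2:172356190-172370535, minus strand) was 0.767, 0.985, 1.49 and 0.844 TPM on control diet and 0.418, 0.553, 0.399 and 0.704 TPM on alcohol. All alcohol libraries were below all controls, by a small margin between alcohol library 4 and control library 1. The difference was −0.40 (SE 0.129, 95% interval −0.69 to −0.12, limma adjusted p = 0.0362), and the gene entered the test only through its control mean of 1.02 TPM. The call was lost without control library 2 (adjusted p = 0.0623) and without alcohol libraries 1, 2 or 3 in turn (0.0971, 0.067 and 0.0901). It could not be made without control library 3, which takes the gene under 1 TPM.

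The Aurka window, chr2:172370541-172370820 on the minus strand (RefSeq, GRCm38.p6), is shown beside that of Cdk1, chr10:69352883-69353162 on the minus strand. Both belong to genes of G2 and mitosis with lower values on alcohol, and they differ in which motifs they hold. Cdk1 was too low for the test. Others of these roles, also too low for it, had higher means on alcohol, such as Ccna2, Cdc20 and Plk1. Capitals mark CCAAT on either strand in both, and in Cdk1 also TTTGAA (the core of the cell cycle homology region, a repressor element of G2/M genes) and TTTCGCGC.
Aurka: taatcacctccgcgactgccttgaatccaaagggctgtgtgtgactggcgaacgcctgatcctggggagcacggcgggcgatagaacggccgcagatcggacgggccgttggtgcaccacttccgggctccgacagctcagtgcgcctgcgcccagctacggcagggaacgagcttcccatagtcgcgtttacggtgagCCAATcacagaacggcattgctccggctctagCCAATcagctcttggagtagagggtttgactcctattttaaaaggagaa
Cdk1: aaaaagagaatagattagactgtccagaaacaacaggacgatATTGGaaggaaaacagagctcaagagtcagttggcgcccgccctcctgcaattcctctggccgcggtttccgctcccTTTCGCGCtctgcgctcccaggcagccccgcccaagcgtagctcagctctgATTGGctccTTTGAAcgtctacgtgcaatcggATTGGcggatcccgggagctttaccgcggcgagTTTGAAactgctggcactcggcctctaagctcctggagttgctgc
Aurka has 2 CCAAT boxes, at −51 to −47 and −19 to −15, and neither of the other motifs. Cdk1 has 3 CCAAT boxes, all on the opposite strand, with TTTGAA at −71 to −66 and −15 to −10. CCAAT was in 20 of the 29 windows (69.0%) and in 36.1% of all windows, while TTTGAA was in 6 (20.7%) and in 17.2%.

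Cdk1, the kinase that drives entry into mitosis, was 0.446, 0.709, 0.762 and 0.446 TPM on control diet and 0.391, 0.351, 0.372 and 0.158 TPM on alcohol. Every alcohol value lay under every control value, and no test was made at this level. Birc5, which encodes survivin, had values of 0.504 to 1.42 and 0.229 to 0.764 TPM, and Ccnb2, cyclin B2, 0.427 to 1.08 and 0.401 to 1.45 TPM. Mki67 was 0.230, 0.244, 0.239 and 0.211 TPM on control diet and 0.257, 0.229, 0.256 and 0.415 TPM on alcohol, and Top2a was 0.328, 0.261, 0.326 and 0.340 and then 0.266, 0.276, 0.265 and 0.406 TPM. Both markers overlapped between diets, with alcohol library 4 the highest of its group in each. The cyclins Ccna2, Ccnb1 and Ccne2, the checkpoint genes Cdc20 and Bub1, and the kinases Plk1 and Aurkb were at or under 0.319 TPM in every WT library. Over the 16 untested genes the library values ran from 0.0105 to 1.45 TPM. The groups did not overlap for 2 of these 16, Mcm4 and Cdk1, beside 30.8% of all genes tested. No such share was computed over genes under the level for testing.

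**Figure D2:**
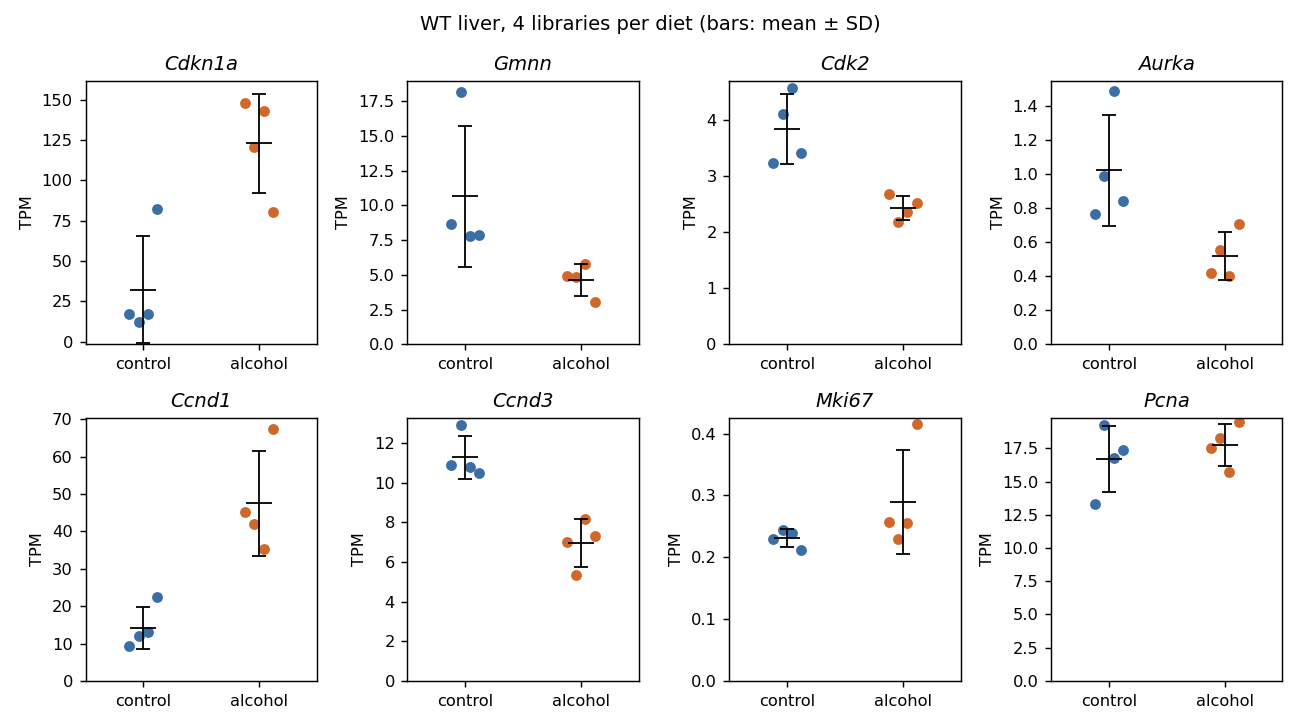
TPM in each WT liver library (points, n = 4 per diet) with mean ± SD (bars) for the 4 called genes, for the D-type cyclins Ccnd1 and Ccnd3, and for Mki67 and Pcna, each on its own linear axis. Gmnn, Cdk2, Aurka and Ccnd3 show separate groups with lower alcohol values, Ccnd1 separate groups with higher ones, Cdkn1a 1 control library at 82.0 TPM beside alcohol values, and Mki67 and Pcna overlapping groups.

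Another 198 cell cycle genes, in lists of 6 functions, were read in the same fit of WT liver. Of the 102 tested, 11 rose (10.8%) and 16 fell (15.7%), both below the 13.3% and 17.9% of all genes tested, with a median of −0.14. Of the 29 further licensing and fork genes tested, 0 rose and 6 fell (20.7%) by limma. An unadjusted p under 0.05 in either direction was found for 9 of the 29 (31%), below the 43% of all genes. The most different was Mcm10, a factor that recruits polymerase alpha to origins, at 34.7, 43.1, 43.8 and 29.9 TPM on control diet and 4.62, 7.99, 3.92 and 5.41 TPM on alcohol. All of its control values stood far above all alcohol values, a difference of −2.60 (SE 0.196, limma adjusted p = 9.2e-06). Orc5, a subunit of the origin recognition complex (−0.64, adjusted p = 0.0059), Rfc1, of the clamp loader (−0.65, 0.00743), and Gins4, of the helicase complex (−0.59, 0.0122), also fell. All 4 calls were lost in the joint fit with the RageΔMye libraries, at adjusted p of 0.127 for Mcm10, 1 for Orc5, 0.773 for Rfc1 and 1 for Gins4. The differences of these 4 genes were the same in that fit, which estimates spread over WT and RageΔMye libraries together. The RageΔMye libraries listed 7596 to 8502 genes above 0, beside 15113 to 15599 in WT liver. Their part in the calls lost in the joint fit was not tested.

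Of the 3 D-type cyclins, 1 rose, 1 fell and 1 did not pass. Ccnd1, cyclin D1, rose from 9.31, 11.9, 13.1 and 22.4 TPM to 45.1, 42.1, 35.3 and 67.5 TPM, a difference of 1.70 (SE 0.256, limma adjusted p = 0.0011). Ccnd3, cyclin D3, fell from 10.9, 12.9, 10.8 and 10.5 TPM to 7.03, 5.33, 8.19 and 7.30 TPM (−0.63, adjusted p = 0.00725). Neither gene's groups overlapped. Ccnd2, cyclin D2, was 0.553, 0.388, 0.688 and 1.31 TPM and then 1.15, 1.46, 1.31 and 0.909 TPM, with overlap, and did not pass (0.37, adjusted p = 0.104). In the joint fit Ccnd1 kept its call (adjusted p = 0.0234) and Ccnd3 lost it (0.296). Ccnd1 and Ccnd3 were the called genes among the 10 tested G1 cyclins, kinases and inhibitors. Among 11 tested E2F, RB and DREAM regulators, 1 rose (9.09%) and 1 fell (9.09%), also below those shares. The repressor-type factor E2f4 rose (0.46, limma adjusted p = 0.0106) and the histone chaperone Rbbp4 fell (−0.51, 0.00582). Both calls were lost in the joint fit (adjusted p = 1 for each). Of the 9 regulators that reached 1 TPM on both diets, 8 had a difference below 0 (88.9%), beside 54.9% of all genes of that kind.

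Among 21 tested p53 target genes, 7 rose (33.3%) and 1 fell (4.76%), with a median of 0.15, beside 13.3% and 17.9% of all genes. The difference was below 0 for 8 of the 21 (38.1%), beside 54.9% of all genes tested. The list was chosen with earlier results of these data known, so these shares describe it and are no independent evidence. Of the 19 that reached 1 TPM on both diets, 6 rose (31.6%) and 1 fell (5.26%), with a median of 0.11. Of all genes that reached it on both diets, 12.1% rose and 16.5% fell. An unadjusted p under 0.05 by limma was found for 10 of the 21 (47.6%), beside 43% of all genes tested. Fas, the death receptor, was 12.9, 14.8, 14.8 and 16.3 TPM on control diet and 42.6, 42.1, 33.2 and 37.3 TPM on alcohol (1.34, limma adjusted p = 4.0e-05). Gadd45b was 2.65, 1.44, 0.796 and 2.42 TPM and then 29.9, 17.2, 12.7 and 9.67 TPM (2.64, adjusted p = 3.4e-04). In both genes every alcohol library was above every control library. Its relative Gadd45a (1.75, adjusted p = 0.00183) and the stress cytokine Gdf15 (1.29, 1.2e-04) rose as well, and Gdf15 entered the test only through its alcohol mean of 2.71 TPM. In the joint fit Gadd45b (adjusted p = 0.0261) and Gadd45a (0.0475) kept their calls, while Fas (0.697) and Gdf15 (0.278) lost them. These genes answer to other stress signals besides p53, and p53 activity itself was not measured.

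Of 20 tested mitotic spindle, chromosome and checkpoint genes, 1 rose (5%) and 5 fell (25%), beside 13.3% and 17.9% of all genes, and 50 of the 70 were too low for the test. Of the 18 that reached 1 TPM on both diets, 1 rose (5.56%) and 4 fell (22.2%), beside 12.1% and 16.5% of all genes of that kind. Cks1b, a subunit bound to cyclin-dependent kinases that also serves the degradation of p27, was 7.18, 7.45, 6.96 and 12 TPM on control diet and 21.5, 17.9, 15.3 and 17.0 TPM on alcohol (1.03, limma adjusted p = 0.00217). The centrosomal kinase Nek2 (−0.67, adjusted p = 0.00469), the anaphase-promoting complex activator Fzr1 (−0.45, 0.0258) and the centromere chaperone Hjurp (−0.65, 0.0272) fell. Nek2 entered the test only through its control mean of 1.15 TPM. Fzr1 lost its call without control library 2 or alcohol library 1, 2 or 4 (adjusted p from 0.058 to 0.0791), and Hjurp without control library 2 or 3 or alcohol library 1, 2 or 3 (0.0578 to 0.0797). Cks1b, Nek2, Fzr1 and Hjurp all lost their calls in the joint fit, at an adjusted p of 0.299 for Hjurp and of 1 for the other 3.

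Of 11 tested nucleotide supply and S-phase genes, 1 rose (9.09%) and 2 fell (18.2%), beside 13.3% and 17.9% of all genes. The repair gene Brca1 fell (−0.66, limma adjusted p = 0.00227) and kept its call in the joint fit (0.0246). Cdca7 also fell (−0.34, adjusted p = 0.0408). Both entered the test only through control means of 1.59 and 1.52 TPM, and of the 8 genes of the list that reached 1 TPM on both diets 0 fell by limma, with 1, the repair gene Ung, at an unadjusted p under 0.05. Ung rose (0.60, adjusted p = 0.0349), but the call held only without control library 4 among the 8 omissions of a single library, with an adjusted p of 0.0543 to 0.0957 in the other 7, and Cdca7 held only without control library 2, with 0.06 to 0.114 in the other 7. Both were lost in the joint fit, at adjusted p of 0.945 and 1.

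Markers of other liver cell types moved with the diet beside all of these gene groups. The 16 macrophage markers summed to 188 to 209 TPM on control diet and 276 to 369 TPM on alcohol, the 9 neutrophil markers to 29.0 to 75.3 and 101 to 152 TPM, and the 9 stellate cell and fibroblast markers to 40.3 to 61.2 and 72.5 to 131 TPM. The 11 hepatocyte markers summed to 147659 to 171199 and 174642 to 192930 TPM. None of these marker genes was at 0 in all libraries of a group, and their part in the results was not tested. The sums for endothelial cells, 54.1 to 133 and 85.7 to 179 TPM, and cholangiocytes, 22.3 to 74.5 and 42.4 to 141 TPM, overlapped between diets. When the 6 RageΔMye libraries entered a joint fit, limma called 337 of 12069 genes tested, in place of 3042 of 9747. Of the 32 cell cycle genes, 23 were tested in that fit and 0 were called. An unadjusted p under 0.05 was found for 1 of these 23, beside 1264 of the 12069. Cdkn1a then had an adjusted p of 0.0984, Gmnn of 0.959, Cdk2 of 1 and Aurka of 0.909 at the same differences.

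In RAW264.7 cells, 0 of the 31 tested cell cycle genes passed between complex and BSA by limma, and 2 of them, E2f1 and Gmnn, had an unadjusted p under 0.05. Over all 10559 genes tested, 0.18% passed, with 16 higher (0.152%) and 3 lower (0.0284%), and 8.31% had an unadjusted p under 0.05. The differences lay below 0 for 25 of the 31 genes, beside 56.2% of all genes tested, with a median of −0.53 beside −0.09. That count ranged from 19 to 28 when each library was left out in turn, the lowest without complex library 2 and the highest without BSA library 3. The groups did not overlap for 5 genes, Gmnn, Mcm2, Rrm2, E2f1 and Aurka, beside 13.5% of all genes tested. All 5 were lower with complex. The precision was limited. The median SD of the 32 genes between libraries on the log2(TPM + 1) scale was 0.409 with BSA and 0.668 with complex. In WT liver it was 0.173 on control diet and 0.114 on alcohol. There 16 and 20 of the 32 means were under 1 TPM, where the added 1 TPM compresses the spread. Over the tested genes alone, the median SE of the difference was 0.584 in RAW264.7 cells and 0.145 in WT liver.

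**Figure D3:**
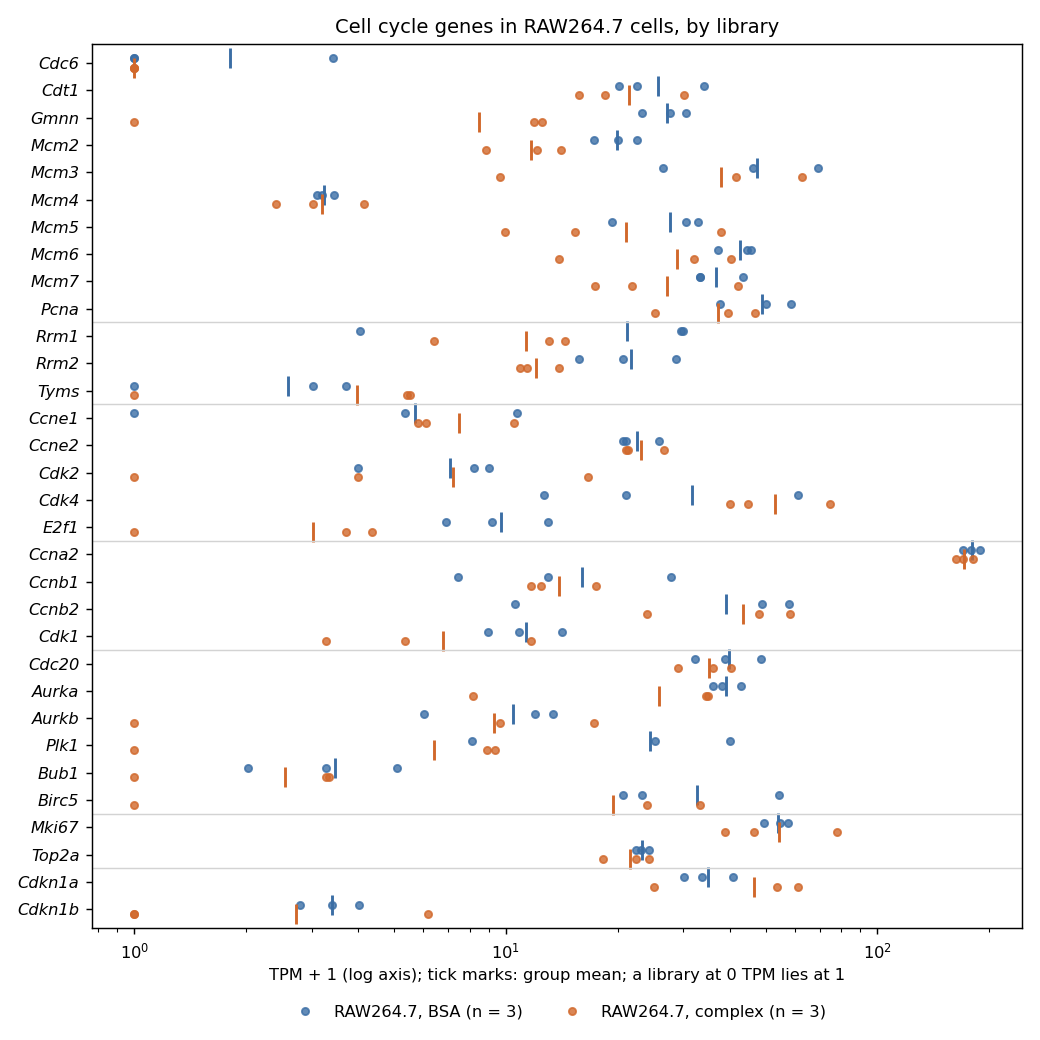
TPM + 1 of the 32 genes in the 6 RAW264.7 libraries on a log axis, 1 point per library (BSA and complex, n = 3 each), with a vertical tick at each group mean, where a library listed at 0 TPM lies at 1. Points of both colours mix in most genes, Ccna2 stands at the right with all libraries between 162 and 188 TPM, and most of the points at 1 belong to complex libraries.

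The licensing and fork genes of RAW264.7 cells were expressed in every library apart from Cdc6, listed at 2.42 TPM in 1 BSA library and at 0 in the other 5, and Gmnn in 1 complex library. Gmnn was 29.5, 22.2 and 26.7 TPM with BSA and 10.9, 11.5 and 0 TPM with complex. The groups were separate and 1 complex library was listed at 0, with a difference of −2.35 (95% interval −4.64 to −0.06, limma adjusted p = 0.586) that was −1.15 without that library. Mcm2 was 19.0, 21.6 and 16.3 TPM and then 13.1, 11.1 and 7.83 TPM, also without overlap (−0.79, 95% interval −1.65 to 0.07, adjusted p = 0.6). The other helicase subunits overlapped between treatments. Mcm6 was 44.8, 43.6 and 36.3 TPM with BSA and 39.4, 31.1 and 12.9 TPM with complex (−0.69, 95% interval −1.71 to 0.32), and Mcm7 was 42.5, 32.3 and 32.2 TPM and then 20.8, 16.4 and 41.1 TPM (−0.53, −1.46 to 0.39). Mcm3 and Mcm5, each at −0.58, and Mcm4 at −0.06 had intervals that crossed 0, as did Pcna at −0.42 (−1.19 to 0.36) and Cdt1 at −0.27 (−1.19 to 0.65). All 9 tested genes of this role had a lower mean log2 level with complex, and none of the 9 passed the test.

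Rrm2 was 14.7, 19.7 and 27.7 TPM with BSA and 9.90, 10.4 and 12.9 TPM with complex, so each complex library was below each BSA library. Its difference was −0.81 (95% interval −1.70 to 0.08, limma adjusted p = 0.6). Rrm1 was 3.05, 28.9 and 28.6 TPM and then 12.1, 5.39 and 13.4 TPM, with the widest range inside the BSA group. Tyms was at or under 4.51 TPM and listed at 0 in 2 of the 6 libraries.

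E2f1 had the smallest unadjusted p of the 31 genes. It was 12, 8.18 and 5.88 TPM with BSA and 0, 2.72 and 3.36 TPM with complex, with no overlap. The difference was −1.89 (95% interval −3.59 to −0.18, limma adjusted p = 0.537). The cyclin E genes did not share that order: Ccne2 was 24.9, 19.7 and 20 TPM and then 20.3, 20.1 and 25.7 TPM (0.03, 95% interval −0.68 to 0.74), and Ccne1 differed by 0.90 (−1.27 to 3.06). Cdk2 ranged from 0 to 15.6 TPM within the complex group alone. Cdk4 was 20, 60.3 and 11.7 TPM with BSA and 73.5, 39.0 and 43.9 TPM with complex, the highest difference of the 31 genes at 1.01 (−0.38 to 2.40, adjusted p = 0.695), with overlapping groups.

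Of the genes of G2/M and mitosis, Ccna2 gave the narrowest interval. It was 169, 188 and 178 TPM with BSA and 179.5, 162 and 169 TPM with complex, a difference of −0.06 (95% interval −0.40 to 0.27). Plk1, the Polo kinase, was 7.09, 24.2 and 39.0 TPM and then 7.87, 8.35 and 0 TPM, with overlap through BSA library 1 (−2.21, −4.62 to 0.20, limma adjusted p = 0.599). Aurka was 37.2, 35.1 and 42.0 TPM with BSA and 34.0, 7.13 and 33.5 TPM with complex. Complex library 2 stood alone at the low end, and without it the difference of −0.87 (95% interval −2.24 to 0.51) became −0.17. Cdk1 was 9.85, 13.2 and 7.95 TPM and then 4.36, 2.28 and 10.7 TPM (−0.92, −2.31 to 0.47). Birc5 and Aurkb were each listed at 0 in 1 complex library, and the differences of Ccnb1 (−0.03), Ccnb2 (0.39), Cdc20 (−0.17), Aurkb (−0.84), Bub1 (−0.54) and Birc5 (−1.68) all had intervals across 0.

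The proliferation markers overlapped between treatments. Mki67 was 53.8, 48.5 and 56.6 TPM with BSA and 77.0, 37.8 and 45.6 TPM with complex, so the complex libraries lay on both sides of the BSA group, with a difference of −0.05 (95% interval −0.78 to 0.68). Top2a was 22.1, 23.2 and 21.4 TPM and then 23.3, 17.2 and 21.4 TPM (−0.11, −0.81 to 0.58). Both intervals leave room for a difference in either direction. Cdkn1a, the gene that rose in liver, was 29.2, 32.8 and 39.8 TPM with BSA and 52.5, 60.1 and 24.1 TPM with complex. The 3 complex values lay on both sides of the BSA values, with a difference of 0.33 (95% interval −0.59 to 1.24, limma adjusted p = 0.782). Cdkn1b was at or under 5.18 TPM and listed at 0 in 2 complex libraries.

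**Figure D4:**
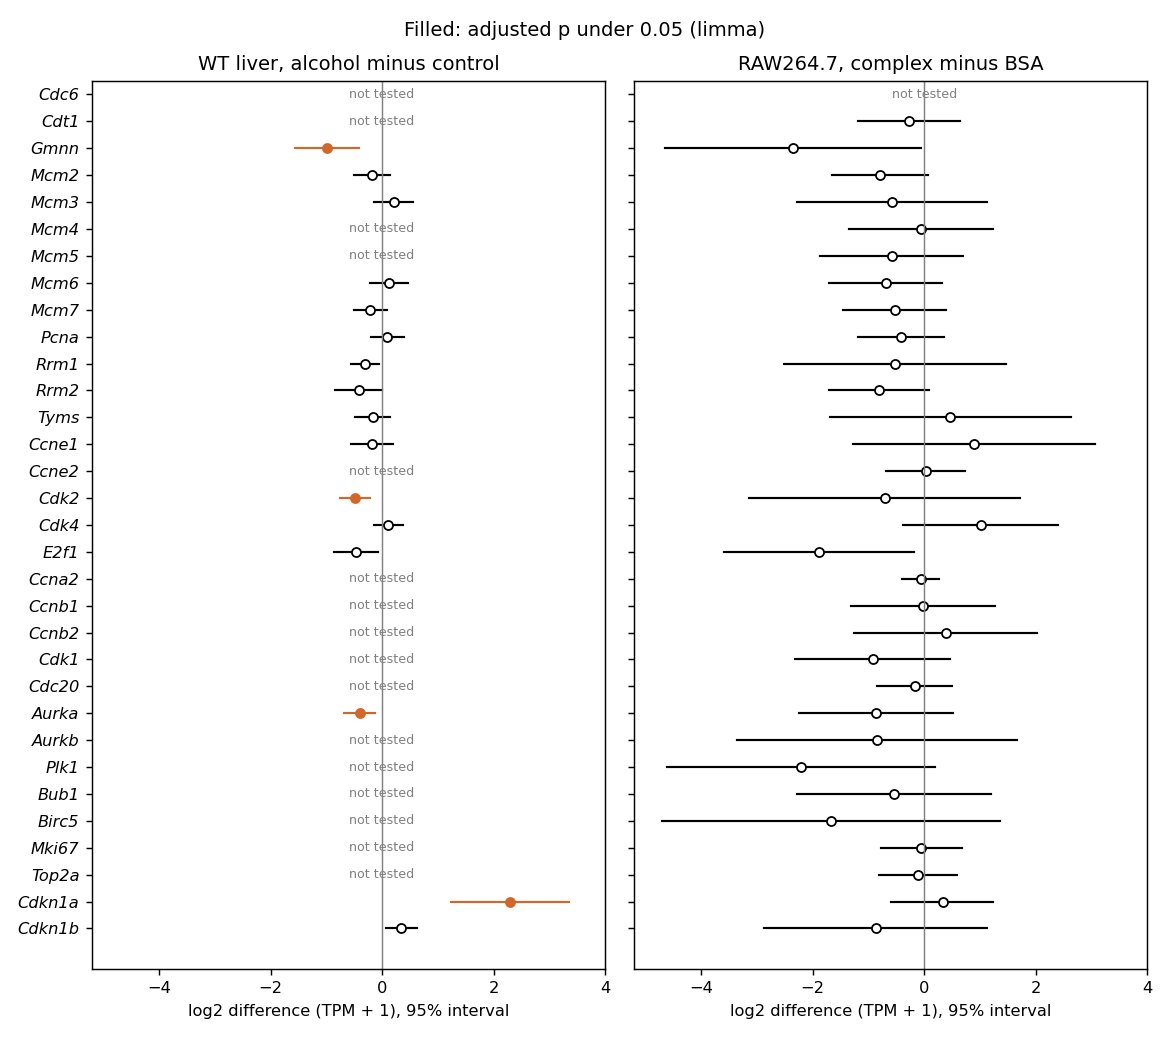
Differences of the tested genes on the log2(TPM + 1) scale with their 95% intervals from limma, for alcohol minus control in WT liver (left) and complex minus BSA in RAW264.7 cells (right). Filled points are adjusted p under 0.05, found for Cdkn1a, Gmnn, Cdk2 and Aurka in liver and for none of the genes in RAW264.7 cells, where the intervals are wider.

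Of the other 198 cell cycle genes, 176 were tested in RAW264.7 cells and 0 passed by limma. An unadjusted p under 0.05 was found for 13 (7.39%), beside 8.31% of all genes tested, and the median was −0.27 beside −0.09. The mitotic genes of this wider list with the smallest p were Spc25, of the kinetochore, at 61.2, 61.0 and 64.4 TPM with BSA and 20.7, 31.5 and 23.5 TPM with complex (−1.29, 95% interval −1.90 to −0.68, adjusted p = 0.148), and the chromosome motor Kif4 (−0.98, adjusted p = 0.333). Both had separate groups. Pole2, a subunit of the leading-strand polymerase, was 4.82, 5.37 and 6.46 TPM with BSA and listed at 0 in all 3 complex libraries (limma adjusted p = 0.135), so that it entered the test only through the BSA group, while Pola2, of polymerase alpha, was 7.46, 14.9 and 35.9 TPM and then 57.6, 113 and 71.5 TPM (2.20, adjusted p = 0.274). Ccnd1, which rose in liver, was 200.1, 215 and 189 TPM with BSA and 163, 162 and 159 TPM with complex (−0.32, 95% interval −0.65 to 0.02). Plk2, a Polo-like kinase among the p53 targets, came closest to the threshold, at 43.5, 28.6 and 38.0 TPM and then 136, 116 and 108 TPM (1.70, adjusted p = 0.0527). Gdf15, of the same list, was 3.20, 7.11 and 4.39 TPM and then 14.4, 15.7 and 14.4 TPM (1.48, adjusted p = 0.389).

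Some of these levels come from genes that share sequence with a neighbour on the other strand. In the mm10 annotation of GENCODE vM21, 8 of the 32 genes have exons that share bases with exons of the opposite strand. The sources used here do not state the counting strand, so reads of such a pair cannot be told apart. Genes of that kind took 56.0% to 58.9% of TPM in RAW264.7 cells and 15.4% to 18.3% in WT liver. How this bears on the levels of all 32 genes was not tested. Ccna2 (chr3:36564865-36572150, minus strand) shares 510 bases, 12.5% of its exon length, with Exosc9, an exosome subunit. Exosc9 was 3767, 3436 and 3624 TPM with BSA and 2805, 2702 and 2604 TPM with complex, beside 11 to 14.8 TPM in WT liver, where Ccna2 was 0.0448 to 0.169 TPM. The pair thus stood high together in RAW264.7 cells and low together in liver. Ccne2 shares 609 bases (17.4%) with Ints8, an Integrator subunit, which was 199, 185 and 179 TPM with BSA and 119, 116 and 127 TPM with complex. Cdk4 shares 641 bases (19.7%) with Tspan31, a tetraspanin, at 103 to 134 and 76.6 to 121 TPM in RAW264.7 cells and 516 to 667 TPM in WT liver. None of these 3 partners passed between complex and BSA. Their groups were separate for Exosc9 (−0.42, limma adjusted p = 0.082) and Ints8 (−0.63, adjusted p = 0.233), both lower with complex, and the part of the overlaps in the levels was not tested.

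**Figure D5:**
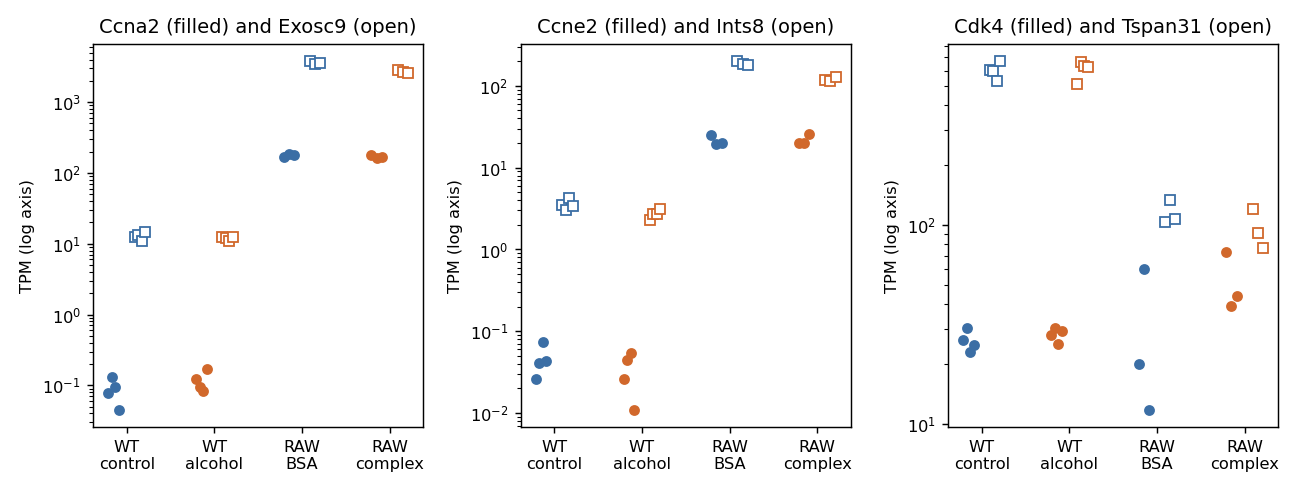
TPM on log axes of Ccna2, Ccne2 and Cdk4 (filled circles) and of the gene overlapping each on the opposite strand, Exosc9, Ints8 and Tspan31 (open squares), in each library of WT liver (n = 4 per diet) and RAW264.7 cells (n = 3 per treatment). Exosc9 and Ints8 are above their partners in every group and both genes of those pairs are higher in RAW264.7 cells, whereas Tspan31 is higher in liver.

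Cdk2 overlaps Pmel, a melanosome protein gene, by 34 bases, and Pmel stood at 0 in each of the 6 RAW264.7 libraries and at or under 0.868 TPM in WT liver. Cdc20 overlaps Elovl1, a fatty acid elongase, by 53 bases. Elovl1 fell in WT liver, from 28.0, 31.4, 31.3 and 28.1 TPM to 16.4, 21.7, 18.6 and 20.7 TPM (−0.60, limma adjusted p = 0.00434), while Cdc20 was 0.0871 to 0.196 TPM on control diet and 0.172 to 0.319 TPM on alcohol. Mcm7 overlaps Cops6 by 64 bases and Ap4m1 by 321, and neither partner passed in either comparison. Plk1 and Cdkn1a overlap predicted transcripts, Gm44985 and AC167363.2, that have no value in the tables. Gmnn and Aurka, called in liver, have no such partner.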

How the data were processed

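RNA libraries of total liver and RAW264.7 cells were stranded (TruSeq mRNA), per the labels' protocols, and mm10 is the build in the submitters' processing notes. The sources used here name no aligner, counter, strand setting or annotation. The authors deposited 1 table for liver and 1 for RAW264.7 cells, without a named unit, and the deposited values were read as TPM because they were not whole and every column summed to 1000000 within rounding. The tests for TPM were therefore used, not those for counts. Depth is unknown, so no counting interval is given.

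Values were taken as log2(TPM + 1), which understates the change of low genes. Genes whose mean reached 1 TPM in either group were tested with limma 3.58.1 (R 4.3.3) with its trend, on the 8 WT liver libraries or the 6 RAW264.7 libraries, with Benjamini-Hochberg adjustment over all genes tested and calls at an adjusted p under 0.05. The fit was run on simulated data with independent values, where changes were put only into genes above the level for testing. Those data cannot show how it behaves for genes near that level or listed at 0. The 32 genes and the other lists were chosen with earlier results of these data known. Named besides the 32 are, per list and comparison, up to 4 called genes by adjusted p (where none was called, the 2 lowest by p), and the opposite-strand partners. Symbols were placed with GENCODE vM21 (24464 of 24972). RefSeq promoters matched 27 of the 32, without Aurkb, Ccna2, Ccne2, Gmnn and Mcm4. The ACATGT pair was searched for after the Cdkn1a window had been seen. Alternatives were other pseudocounts, filters, scaling and thresholds, no trend, each library left out, a replicate block, a joint liver fit, and omission of genes overlapping on the opposite strand with TPM rescaled.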

Additional observations from a re-analysis of the deposited data

Results flagged for a closer look

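Among 102 sets of 4 WT liver values examined, for the 32 genes and the other cell cycle genes named for liver, 9 held a library far from the other 3 of its diet group, and chance alone would give about 1 in 20. Control library 4 was far above its group for Cdkn1a, at 82.0 TPM beside 12.5 to 17.4, for Cks1b, at 12 beside 6.96 to 7.45, and for E2f4, at 11.2 beside 9.18 to 9.25. In each of these 3 genes it lay toward the alcohol values. Control library 2 was far above its group for Gmnn, at 18.2 TPM beside 7.82 to 8.68, for Ccnd3, at 12.9 beside 10.5 to 10.9, and for Fzr1, at 4.06 beside 3.31 to 3.34, in each case away from the alcohol values. Alcohol library 4 was far above its group for Mki67, at 0.415 TPM beside 0.229 to 0.257, and for Top2a, at 0.406 beside 0.265 to 0.276. The same library was far below its group for Cdk1, at 0.158 TPM beside 0.351 to 0.391. What sets these libraries apart was not tested.

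The 6 liver libraries labelled RageΔMye, on either diet, entered no comparison of their own. In all of them Aurka was between 198 and 596 TPM, above the WT liver maximum of 1.49 TPM. Ccna2 was between 37.2 and 93.2 TPM in those libraries, with a WT maximum of 0.169 TPM, and Ccne2 between 9 and 20.3 TPM, with a WT maximum of 0.074 TPM. In the same 6 libraries, 19 to 24 of the 32 genes were listed at 0, and genes with an exon overlap on the opposite strand took 55.8% to 61.7% of TPM. Genotype and these features of the libraries cannot be told apart.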

How the results depend on the processing

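In WT liver, 3042 genes were called. A filter at 5 TPM called 1881 (846 higher, 1035 lower), the joint fit of 14 libraries 337 (173 and 164) and an adjusted p under 0.01 called 1450 (621 and 829). Without genes overlapping on the opposite strand 1091 were lower. Leaving out each library in turn gave 2055 to 3469 calls, 898 to 1587 higher and 1082 to 1882 lower. Of the 32 genes, 1 rose and 3 fell. The number that rose was 2 with no filter (Mcm4 added) and with quantile normalization (Cdkn1b added), 0 without overlapping genes, which leaves out Cdkn1a itself, 0 in the joint fit, and 1 to 2 when libraries were left out. The number that fell was 1 with the filter at 5 TPM, which takes out Cdk2 and Aurka, 0 in the joint fit, 0 at an adjusted p under 0.01, and 2 to 4 when libraries were left out. The joint fit had 1 of its 23 tested members at an unadjusted p under 0.05, beside 1264 of its 12069 genes tested. The number with a difference below 0, 10 of 16, was 3 of the 6 genes left at 5 TPM, and 8 to 11 when libraries were left out. Of the 19 other named genes called in liver, 15 lost the call in the joint fit, and 4 (Ung, Cdca7, Hjurp and Fzr1) in at least 1 omission of a single library. The cause of the other changes of call was not tested. Aurka also missed the threshold with no filter (adjusted p = 0.0523). Cdkn1b passed without control library 4 (0.40, adjusted p = 0.0354). No setting reversed the 4 called genes, and Pcna, not called, ran from −0.01 to 0.16 when libraries were left out.

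In RAW264.7 cells, 19 genes were called, 16 higher and 3 lower. Without overlapping genes 6 were called (5 and 1), and at an adjusted p under 0.01, 7 (6 and 1). The number lower was 1 with pseudocounts of 0.1 and 0.01 and with no filter, and 12 without the trend. Leaving out each library gave 2 to 9 calls, 1 to 8 higher and 1 to 1 lower. The replicate block called 0 genes, 0 higher and 0 lower, with 705 at an unadjusted p under 0.05, of which 1 was among the 32. The labels do not say whether the replicate numbers pair the samples. The deviations of same-numbered libraries correlated at −0.0011, −0.0254 and −0.0132, which shows no shared effect but cannot exclude pairing. No setting called any of the 32 genes. Their number below 0, 25 of 31, ran from 19 to 28 without single libraries. Quantile normalization turned the sign of Mcm4 (0.17), Ccnb1 (0.05) and Mki67 (0.00), as omission of overlapping genes did for Ccnb1 (0.00). Leaving out libraries spanned 0 for Mcm3 (−1.13 to 0.22), Mcm4 (−0.26 to 0.13), Tyms (−0.11 to 1.28), Ccne1 (−0.08 to 1.64), Ccne2 (−0.08 to 0.13), Cdk2 (−1.73 to 0.29), Ccnb1 (−0.48 to 0.47), Ccnb2 (−0.39 to 0.84), Aurkb (−1.67 to 0.39), Bub1 (−0.88 to 0.04), Mki67 (−0.34 to 0.16) and Top2a (−0.20 to 0.01). Among the other named genes, Pole2, tested only through its BSA level, passed without the trend (adjusted p = 0.0383). Neither table gives counts, so the count test planned for that case was not run, and depth limits both tables to an unknown degree.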
